A study of Mus musculus with 4 samples.

Results

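Claudins are the 4-pass membrane proteins that form the strands of tight junctions, and 10 of their genes, Cldn1, Cldn2, Cldn3, Cldn4, Cldn5, Cldn7, Cldn8, Cldn10, Cldn12 and Cldn18, were followed through high-dose tamoxifen in the corpus of the mouse stomach. They were chosen by name, as every probe set whose annotated symbol was exactly one of these 10, which gave 19 probe sets among 45101 on the array and 10 genes among 18193 with a probe set of their own. A probe set is the group of array probes that reads a transcript. Where a gene had several, the one that was brightest on average is used and the others are given beside it.

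The groups were tamoxifen after 12 hours, tamoxifen after 2.5 days, tamoxifen after 4.5 days and vehicle at 2.5 days, with 1 array each, hybridised with RNA pooled from 3 mice. All mice were wild type and 6 weeks old at treatment, and the strains were FVB/N, BALB/c and C57BL/6, which the labels do not tie to arrays. Tamoxifen, a modulator of estrogen receptors, was injected into the peritoneum at 5 mg per 20 g of body weight on 1 or 3 days, in sunflower oil (90%) with ethanol (10%) as vehicle. The labels do not tie the 1 or 3 days to arrays either, so the arrays may differ in number of doses as well as in time. The aim of the treatment was SPEM, short for spasmolytic polypeptide-expressing metaplasia, in which corpus glands take on mucous neck cell transcripts. The single vehicle array served all 3 comparisons, which therefore share its deviations, and with 1 array per group there is no estimate of the spread between mice and no test.

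Tight junctions seal the space between neighbouring epithelial cells, and the mix of claudins in a strand sets which ions pass. Some claudins, such as claudin-2, line pores for small cations and water, whereas others tighten the barrier. In the stomach, claudin-18 is the best known member: its gastric isoform comes from a first exon other than that of lung, and mice that lack it leak acid between the cells of the mucosa.

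Promoters are shown for 3 of the genes. Cldn2 and Cldn4 were taken because the probe sets used for them lay on opposite sides of vehicle at 12 hours. For Cldn2 this was by less than 2-fold and in 1 probe set only. Cldn18 was taken as the best known gastric member, with both of its annotated starts (Cldn7, Cldn10 and Cldn12 also have more than 1). Sequences are from RefSeq (GRCm38.p6), from 250 bases before to 50 bases after a start, 5′ to 3′ on the gene's own strand. Of the 10 genes 9 have entries in this table, 14 in all, and Cldn8 is the other. The Cldn2 promoter lies at chrX:139800558-139800857 on the plus strand and that of Cldn4 at chr5:134946885-134947184 on the minus strand. Cldn18 starts lie 7204 bases apart on the minus strand, at chr9:99717218-99717517 and chr9:99710014-99710313. Capitals mark matches, on either strand, to any of 8 motifs.
Cldn2: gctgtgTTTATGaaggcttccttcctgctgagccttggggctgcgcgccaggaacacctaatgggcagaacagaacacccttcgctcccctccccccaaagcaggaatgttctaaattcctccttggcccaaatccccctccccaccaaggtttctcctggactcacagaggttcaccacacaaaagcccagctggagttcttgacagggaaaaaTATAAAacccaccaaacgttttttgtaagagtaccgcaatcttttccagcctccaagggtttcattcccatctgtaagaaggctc
Cldn4: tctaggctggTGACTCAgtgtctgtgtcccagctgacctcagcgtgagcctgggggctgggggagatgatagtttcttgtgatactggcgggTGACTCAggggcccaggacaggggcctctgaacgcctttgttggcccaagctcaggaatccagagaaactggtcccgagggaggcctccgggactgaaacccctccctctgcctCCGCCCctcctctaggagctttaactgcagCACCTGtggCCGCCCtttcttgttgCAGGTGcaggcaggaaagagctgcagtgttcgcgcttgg
Cldn18, upstream start: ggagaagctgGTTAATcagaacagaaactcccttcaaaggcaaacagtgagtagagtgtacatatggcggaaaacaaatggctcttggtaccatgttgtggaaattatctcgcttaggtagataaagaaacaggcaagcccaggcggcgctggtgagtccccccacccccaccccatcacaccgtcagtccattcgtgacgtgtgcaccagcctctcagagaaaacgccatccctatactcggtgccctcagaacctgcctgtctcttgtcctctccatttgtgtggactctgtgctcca
Cldn18, downstream start: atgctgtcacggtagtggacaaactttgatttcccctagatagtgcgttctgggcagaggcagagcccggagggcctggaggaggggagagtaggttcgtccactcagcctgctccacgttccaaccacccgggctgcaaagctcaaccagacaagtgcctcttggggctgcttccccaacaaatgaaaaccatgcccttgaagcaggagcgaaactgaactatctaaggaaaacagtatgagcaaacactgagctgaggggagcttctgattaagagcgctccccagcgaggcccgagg

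The Cldn4 window held 2 matches to the AP-1 site TGANTCA, beginning at positions -240 and -158 from the start, and 7.81% of 32851 promoters held at least 1. It also held 2 GC boxes (GGGCGG, in 35.7% of promoters) and 2 E-boxes of the kind bound by Snail (CACCTG, in 20.2%), and none of its matches overlapped another. The Cldn2 window held a TATA box (TATAAA, in 13.6%) beginning at position -35 and a CDX site (TTTATG, in 11.9%). The upstream Cldn18 window held the HNF1-type letters GTTAAT (in 7.1%), and the downstream one held no match. None of these 4 windows matched the grainyhead site AACCGGTT (in 0.146%) or the antioxidant response element TGACNNNGC (in 12.4%). A match is a description of the letters and not a binding site.

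Levels are log2 RMA values, so that a difference of 1 is 2-fold, and the array medians were 5.30 to 5.34. Probe sets differ in brightness, so levels are compared between arrays and not between genes. As gauges of error, 18 hybridisation controls differed between tamoxifen and vehicle arrays with SDs of 0.08 to 0.10. Their mean also differed from vehicle, by 0.04 on the 12-hour array, -0.13 on the 2.5-day array and -0.16 on the 4.5-day array. The SDs leave out these shifts, and the largest single control difference was 0.31 in size. The closest pair of arrays, at 2.5 and 4.5 days of tamoxifen, had a robust SD of 0.15 over expressed genes. That robust SD holds differences between pools and times as well as technical error. This is the smallest of such values. Against vehicle the robust SD was 0.27, 0.35 and 0.39 at the 3 times, and the poly-A spike-in controls had SDs of 0.11 to 0.21, with a largest single difference of 0.72. Of the 10 claudins, 7 were at or above the array median on all 4 arrays, and Cldn1 and Cldn10 were below it on all 4, so their label as claudins of the gastric epithelium has no clear signal behind it here. Cldn8 was the other, above the median in vehicle and at 12 hours but not later. The corpus markers were bright in vehicle, with all of the 10 parietal, 7 chief, 4 mucous neck and 5 surface mucous markers above the median, but so were all of the 7 smooth muscle, 6 fibroblast and 13 endothelial markers, so the RNA was not of epithelium alone. Of 9 squamous forestomach markers, 7 were at or above the median in vehicle, 2 at 12 hours, 8 at 2.5 days and 9 at 4.5 days. The vehicle array and both later arrays thus carried squamous transcripts as well.

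Cldn2, the claudin of leaky, cation-permeable epithelia, was lower than vehicle at 12 hours and higher at both later times. Its level was 7.84 at 12 hours, 10.17 at 2.5 days and 10.86 at 4.5 days of tamoxifen, against 8.78 in vehicle. The 12-hour array was thus the lowest of the 4, vehicle came next and the 4.5-day array was highest, with every step in this order larger than the 0.15 gauge. The differences from vehicle were -0.94, 1.39 and 2.08, and at 4.5 days this was 4.22-fold, with 0.333% of expressed genes as far above vehicle or farther. The second, dimmer probe set of Cldn2 was above the array median only at 4.5 days, at 5.82 against 4.72 in vehicle, and it differed by 0.00, 0.32 and 1.10. Both probe sets therefore put the 4.5-day array at least 2-fold above vehicle, whereas 1 of them carried the lower value at 12 hours. At 2.5 days the mean of both was 0.85, under 2-fold. In these bulk samples, fewer cells of a type and less RNA per cell cannot be told apart.

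**Figure D1:**
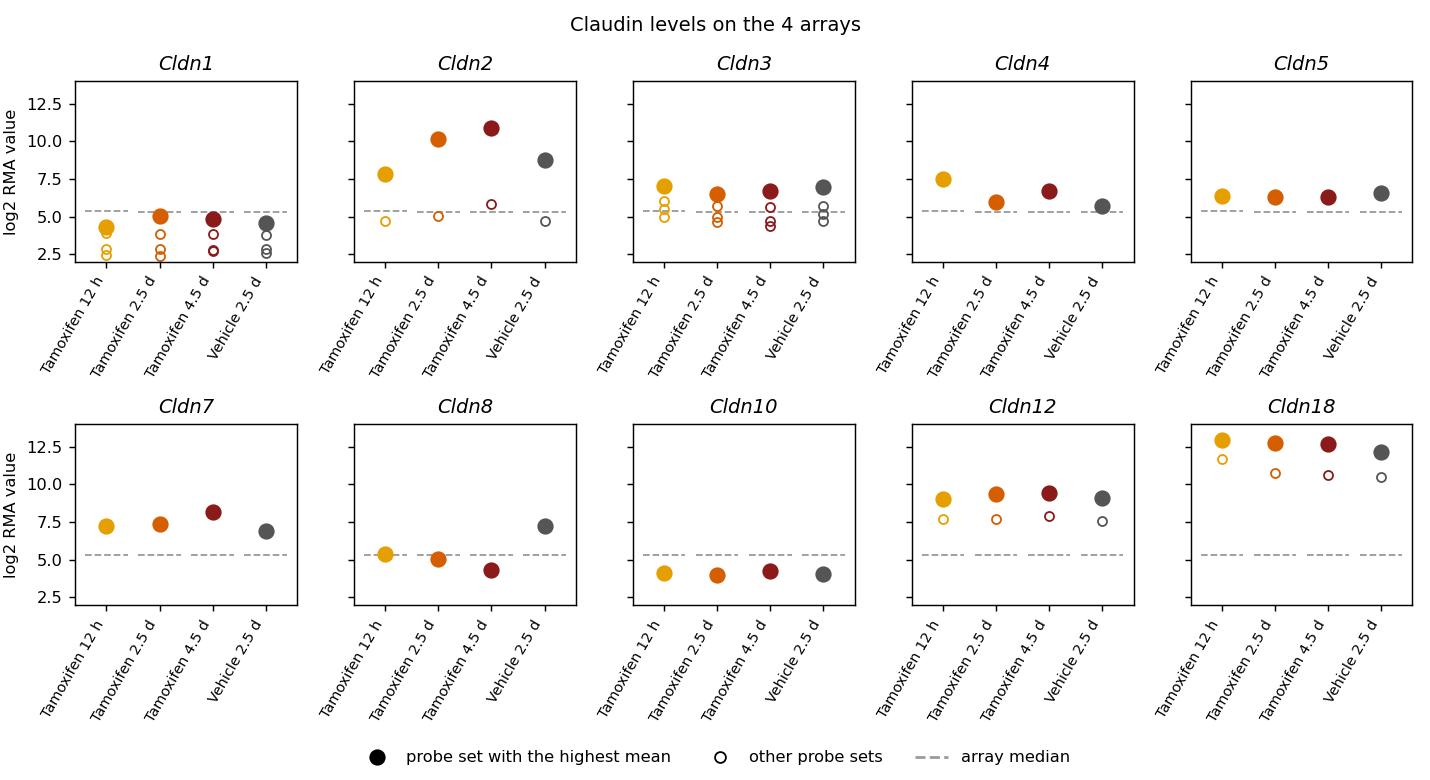
Log2 RMA values of the 10 claudin genes on each array (tamoxifen at 12 hours, at 2.5 days and at 4.5 days, then vehicle at 2.5 days). Filled points are the probe set used, open points the other probe sets and dashes the array median. Cldn2 spans 7.84 to 10.86, Cldn8 lies above the median in vehicle at 7.21 and below it at 4.5 days at 4.34, and Cldn18 stays between 12.18 and 12.94.

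Cldn18, the gastric barrier claudin, was higher than vehicle on all 3 tamoxifen arrays, by less than 2-fold. Its level was 12.94, 12.73 and 12.70 on the 12-hour, 2.5-day and 4.5-day arrays, against 12.18 in vehicle. The 3 tamoxifen arrays lay above vehicle, and those at 2.5 and 4.5 days differed by 0.03, less than the 0.15 gauge. The differences were 0.75, 0.54 and 0.51, and 1.92%, 11.1% and 13.2% of expressed genes were as far above vehicle or farther. The other probe set was at 11.70, 10.76 and 10.65 on the tamoxifen arrays, against 10.47 in vehicle. It passed 2-fold at 12 hours with a difference of 1.22, but gave 0.29 and 0.18 at the later times. These are smaller than the robust SDs of 0.35 and 0.39 for those pairs of arrays. Both are above the array median throughout, so the probe sets of Cldn18 disagree on how far the 12-hour array stood apart from the later ones, and they were not assigned here to the gastric or the lung isoform.

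Cldn4, a barrier claudin and a receptor for Clostridium perfringens enterotoxin, was highest on the 12-hour array. Its single probe set was at 7.50, 5.98 and 6.70 on the 12-hour, 2.5-day and 4.5-day arrays, against 5.67 in vehicle. All 3 tamoxifen arrays were above vehicle, and no 2 arrays lay within 0.15 of each other. The difference of 1.83 at 12 hours was 3.55-fold, and 0.326% of expressed genes were as far above vehicle or farther. The vehicle level was near its array median of 5.31, and a pseudocount of 32 lowered the 12-hour difference to 1.36, still past 2-fold. At 2.5 days the difference was 0.31, smaller than the robust SD of 0.35 for that pair of arrays, and at 4.5 days 1.02, which a pseudocount of 32 on the linear scale lowered to 0.71. The neighbouring gene on chromosome 5, Cldn3, encodes the other well known enterotoxin receptor. Cldn3 was at 7.03, 6.53 and 6.68 on the tamoxifen arrays, against 6.97 in vehicle. Its differences were 0.06, -0.44 and -0.29, and its 4 probe sets ranged from 0.06 to 0.32, from -0.44 to -0.05 and from -0.51 to -0.06. No probe set of Cldn3 reached 2-fold at any time, although Cldn4 next to it did at 12 hours and 4.5 days.

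Cldn7, a claudin of the lateral membrane that binds the cell adhesion protein EpCAM, stood apart at 4.5 days. It was at 7.27, 7.38 and 8.18 on the 12-hour, 2.5-day and 4.5-day arrays, against 6.93 in vehicle. The differences of 0.34, 0.45 and 1.25 put all 3 tamoxifen arrays above vehicle, and the arrays at 12 hours and 2.5 days lay within 0.15 of each other. Epcam itself was at 11.32, 11.41 and 11.51 on the tamoxifen arrays, against 10.73 in vehicle, with differences of 0.59, 0.68 and 0.78.

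Cldn8, a barrier claudin known from the distal nephron and colon, was the 1 member at least 2-fold lower at every time. It was at 5.41, 5.06 and 4.34 on the 12-hour, 2.5-day and 4.5-day arrays, against 7.21 in vehicle. The 4 arrays were ordered with 4.5 days lowest and vehicle highest, and each step was larger than 0.15. The step between 12 hours and 2.5 days, -0.35, was close in size to the robust SD of 0.29 for that pair of arrays. The 12-hour value was itself near its array median of 5.34. The differences were -1.80, -2.15 and -2.87, and at 4.5 days 0.138% of expressed genes were as far below vehicle or farther. Cldn8 was below the array median at 2.5 and 4.5 days, where RMA compresses differences, and it counted as expressed there only through vehicle. The vehicle level was itself under the 75th percentile of its array, 7.34. With the pseudocount of 32 the differences were -1.28, -1.46 and -1.79, still past 2-fold, so the size of the Cldn8 differences depends on how low values are treated.

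Among the remaining members, Cldn12 was the one well above the array median. Cldn12, which lacks the PDZ-binding tail of most claudins, was at 9.06, 9.35 and 9.41 on the tamoxifen arrays, against 9.12 in vehicle, and its 2 probe sets stayed between -0.06 and 0.32 from vehicle at all times. Cldn5, the claudin of blood vessel endothelium, was at 6.37, 6.30 and 6.30, against 6.57 in vehicle. Its differences of -0.20, -0.27 and -0.27 stood beside medians of -0.03, -0.31 and -0.40 over the 13 endothelial markers. Cldn1, the claudin of the epidermal barrier, was at 4.31, 5.07 and 4.84, against 4.57 in vehicle, and Cldn10, known for ion-selective pores, was at 4.12, 3.96 and 4.24, against 4.05 in vehicle. Neither reached 1.5-fold from vehicle on any array. The 4 probe sets of Cldn1, all below the array median, ranged from -0.25 to 0.15, from -0.23 to 0.50 and from -0.05 to 0.27. The value of 0.50 was that of the probe set used.

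**Figure D2:**
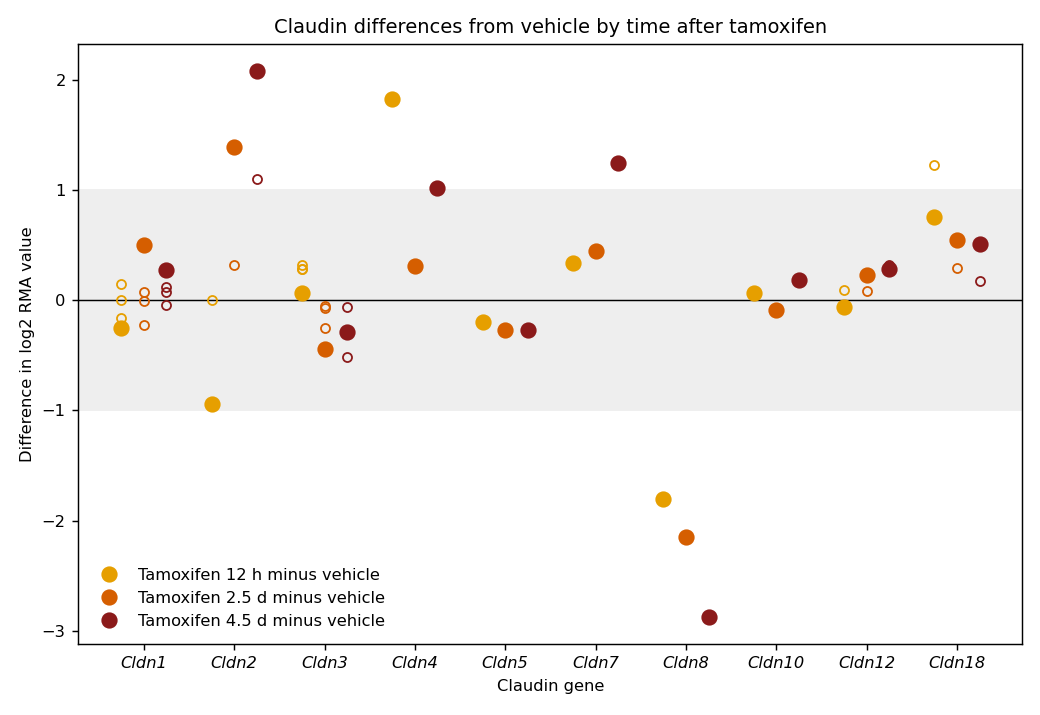
Difference in log2 RMA value from vehicle for each claudin on the 12-hour, 2.5-day and 4.5-day arrays of tamoxifen. Filled points are the probe set used, open points the others, and the grey band covers differences under 2-fold. Cldn2 and Cldn8 reach 2.08 and -2.87 at 4.5 days, and Cldn4 has its highest value, 1.83, at 12 hours.

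Counted at 2-fold, claudins lay on both sides of vehicle at each time. At 12 hours 1 of 10 was higher (Cldn4), where 0.996% of 12253 expressed genes were, and 1 of 10 was lower (Cldn8), where 1.92% were. At 2.5 days 1 was higher (Cldn2), against 3.32% of 12295 expressed genes, and 1 was lower (Cldn8), against 1.94%. At 4.5 days 3 were higher (Cldn2, Cldn4 and Cldn7), against 3.8% of 12303 expressed genes, and 1 was lower (Cldn8), against 2.72%. Expressed genes were those that reached the array median on the brighter array of the pair. By this filter 8 of the 10 claudins were expressed, and the 2 others added no call. At 1.5-fold, Cldn18 joined Cldn4 at 12 hours to make 2 higher (background 3.37%) and Cldn2 joined Cldn8 to make 2 lower (5.66%). The counts at that fold stayed at 1 higher (9.69%) and 1 lower (6.03%) at 2.5 days, and at 3 higher (10.7%) and 1 lower (8.21%) at 4.5 days. The median difference over all 10 was 0.00, 0.27 and 0.28 at the 3 times, against -0.02 at each over all 18193 genes. Over the 8 expressed claudins it was 0.00, 0.27 and 0.40, against -0.04, 0.02 and 0.00 over all expressed genes. With so few members these shares describe the 10 genes and were not tested.

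**Figure D3:**
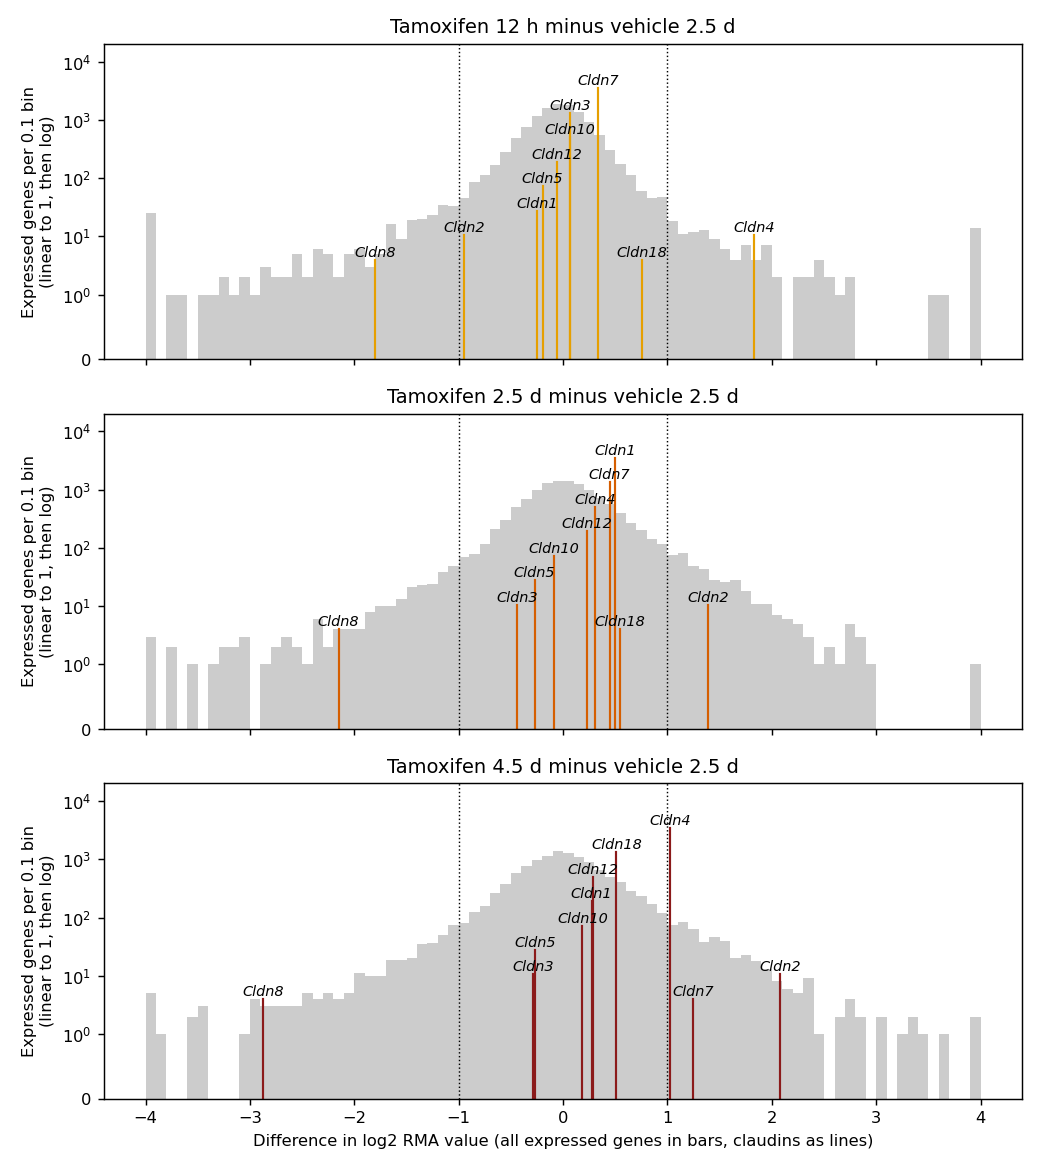
Distribution of differences from vehicle over all expressed genes (grey bars, bins of 0.1, with the end bins holding all genes beyond) and the 10 claudins (coloured lines, whose height has no meaning; Cldn1 and Cldn10 are drawn although below the expression filter). Dotted lines mark 2-fold. Cldn8 lies past the lower line in all 3 panels, and Cldn2, Cldn4 and Cldn7 lie past the upper line at 4.5 days.

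The steps between tamoxifen arrays do not use vehicle. Between 12 hours and 2.5 days, 2.5 days minus 12 hours, Cldn2 differed by 2.33 and Cldn4 by -1.52. In that step 2.58% of 12205 expressed genes passed 2-fold upwards and 0.655% downwards. The dimmer Cldn2 probe set, below the array median on both arrays, differed by 0.32, so the Cldn2 step past 2-fold rests on 1 probe set. Both values use the 12-hour array, whose pancreatic and squamous markers are given below. Between 2.5 and 4.5 days no claudin passed 2-fold, on a pair of arrays where 0.248% of 12117 expressed genes were higher and 0.182% lower. At 1.5-fold, 3 of the 7 claudins expressed in that pair were higher at 4.5 days, Cldn7 by 0.80, Cldn4 by 0.72 and Cldn2 by 0.69, where 0.933% of expressed genes were, and 0 were lower, where 1.17% were. Cldn8, not expressed by the filter there, differed by -0.72.

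Other junction genes were measured beside the claudins. Of 46 measured genes in 6 lists of junction proteins and their regulators, 44 of them expressed, none was at least 2-fold away from vehicle at any time, and their median differences were 0.07, 0.04 and 0.00. At the 3 times 0.996% to 3.8% of all expressed genes were 2-fold higher and 1.92% to 2.72% lower, so few calls would be made among 46 genes at these shares. Among partner membrane proteins, occludin (Ocln) was at 0.69, 0.26 and -0.09, its relative Marveld3 at -0.09, -0.66 and -0.40, and Igsf5, an immunoglobulin-type junction protein, at -0.13, -0.84 and -0.85. The 8 scaffold genes had medians of 0.03, 0.05 and -0.10. The cingulin gene Cgn was at 0.21, 0.55 and 0.58, the polarity scaffold gene Patj at -0.24, -0.28 and -0.37, and Tjp1, which encodes the scaffold ZO-1 that anchors claudins to actin, was at 0.31, 0.22 and 0.08. E-cadherin (Cdh1), an adhesion protein of most epithelial cells, was at 0.16, 0.06 and 0.00, and the 5 adherens junction genes reached at most 0.20 in size. Of the polarity genes, Pals1, listed on the array as Mpp5, was at 0.56, 0.09 and 0.09, and Pard6b at 0.24, 0.55 and 0.49. The matriptase gene St14, a membrane protease, was at 0.59, 0.30 and 0.26.

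Among transcription factors that act on epithelial junction genes, Snai1, a repressor of E-cadherin and claudins, was at 5.73, 5.41 and 5.34 on the tamoxifen arrays, against 4.81 in vehicle. Its differences were 0.92, 0.60 and 0.52, and its vehicle level was below the array median. Snai2, its relative, was at -0.36, 0.36 and 0.65, the highest of the list at 4.5 days, where Snai1 came next. Grhl2, a grainyhead factor known to activate Cldn4, was at 0.05, -0.12 and -0.20. Of the CDX factors, Cdx2 was at -0.22, -0.38 and -0.42 and reached the array median only in vehicle. Cdx1 was below the median on all 4 arrays. Outside the 10 members, 13 other claudins and claudin-like genes were measured, of which 4, 3 and 3 were expressed at the 3 times, and none passed 2-fold. With most of them below the array median, little could be seen of their changes. The largest difference among them was that of Cldn22, at -0.38, -0.89 and -0.56.

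**Figure D4:**
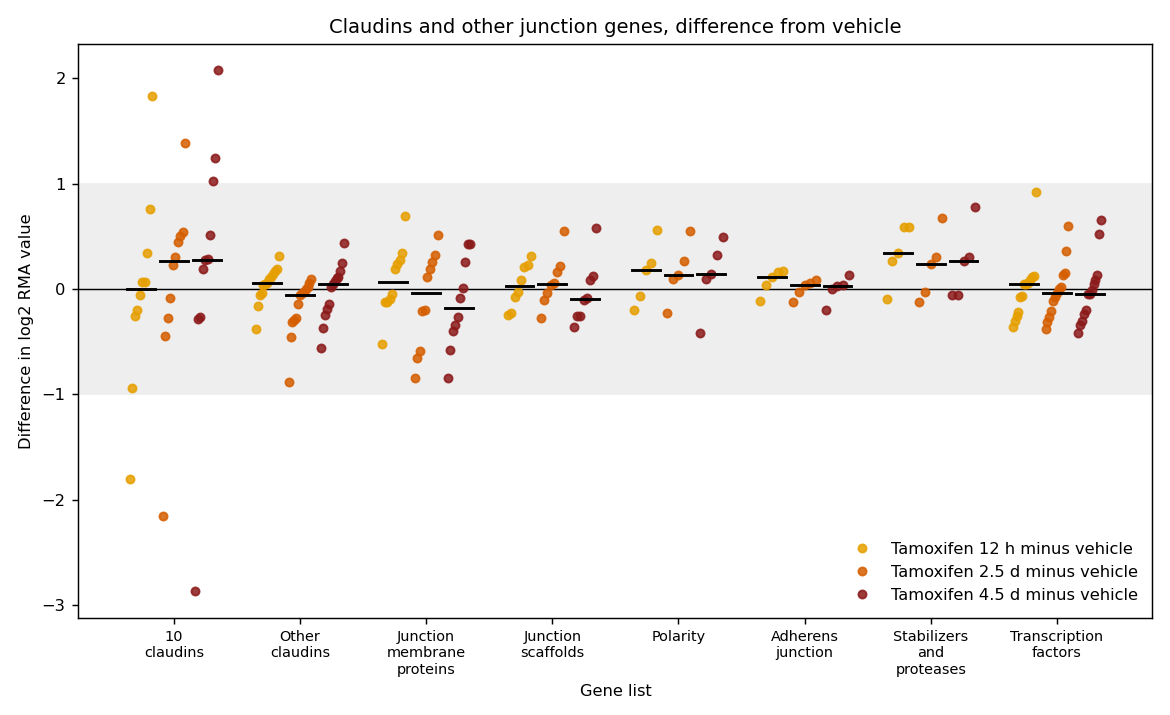
Differences from vehicle of the 10 claudins and of 7 other lists of claudin, junction and regulator genes on the 12-hour, 2.5-day and 4.5-day arrays of tamoxifen. Points are genes, black bars are medians and the grey band covers differences under 2-fold. Points outside the band are all claudins of the first list, namely Cldn2, Cldn4, Cldn7 and Cldn8.

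Markers of other cells moved on the same arrays. The 12-hour array carried transcripts of exocrine pancreas, with 7 of 8 acinar markers at least 2-fold above vehicle, by 4.31 to 9.32, and a median difference of 6.86. The log2 summed level was 16.09, against 14.70 in vehicle, where nearly all of it was Clps, at 14.64 on the 12-hour array, against 14.67 in vehicle. Cela2a, Cpa1, Cpb1 and Ctrb1 of that list were below the array median in vehicle. Squamous forestomach markers were low on it, with 7 of 9 at least 2-fold lower, a median difference of -3.27 and a log2 summed level of 8.24, against 12.58 in vehicle. The part of either in the 12-hour values of Cldn2, Cldn4, Cldn8 and Cldn18 was not tested. At 2.5 and 4.5 days no acinar marker was at least 2-fold higher, with medians of -0.42 and -0.50, and the squamous medians were -0.02 and 0.03. At 2.5 days 1 squamous marker was at least 2-fold higher (Ivl, at 1.98) and 2 were lower (Krt4 and Lor, at -1.16 and -1.11). At 4.5 days 1 of the 9 squamous markers was at least 2-fold higher and 1 lower, on the array where Cldn2, Cldn4 and Cldn7 were at least 2-fold above vehicle and Cldn8 below it. Parietal markers had medians of -1.44, -1.28 and -1.12, and chief cell markers of -0.21, -1.27 and -2.39, on the 3 tamoxifen arrays, and macrophage markers of 0.35, 1.06 and 0.82. Tnfrsf19 of the chief list went the other way at the later times, at -1.11, 1.04 and 1.41. Mucous neck markers had medians of -0.21, 0.46 and 0.71, and 2 of the 4, Cftr and Dmbt1, were at least 2-fold higher at 2.5 and 4.5 days. Cftr was at least 2-fold lower at 12 hours, at -1.14. Tff2, the gene of the spasmolytic polypeptide itself, was at -0.09, -0.24 and -0.06, and Gkn3 was at -0.33, -0.47 and 0.13. All 7 smooth muscle markers were below vehicle on all 3 tamoxifen arrays, with medians of -0.37, -0.62 and -0.61 and none past 2-fold. Of the 4 mesothelial markers Msln was at least 2-fold higher at 4.5 days, at 6.95 against 4.69 in vehicle. The surface mucous, endocrine, duct and intestine, fibroblast and lymphocyte lists had medians between -0.47 and 0.17. Of these lists, the endocrine genes Ghrl and Sst were at least 2-fold lower at 4.5 days, at -1.36 and -1.92. Fabp2 was at least 2-fold lower at 2.5 and 4.5 days, and Lum at 12 hours. Whether these shifts bear on any claudin was not tested.

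The genes with the most similar course were sought for the member with the highest mean, Cldn18, and for the one with the largest difference, Cldn8. Likeness was the distance between the 4 array values, each gene centred on its own mean, among 11616 named genes, and 4 arrays leave many genes close. Nearest to Cldn18 were Tapbpl, Maff and Cyp4f18 at distances of 0.03, 0.04 and 0.09. Maff, a small MAF transcription factor, differed from vehicle by 0.72, 0.53 and 0.47. Nearest to Cldn8 were Aass, Ttr and Adhfe1 at 0.16, 0.34 and 0.35. Aass, an enzyme of lysine breakdown, was at -1.66, -2.21 and -2.76, and Ttr, the transthyretin gene, at -1.54, -2.01 and -2.40.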

How the data were processed

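The authors deposited log2 expression values for 45101 probe sets of a 1-colour Affymetrix array. Per the submitters' processing notes the tools were Partek and RMA, without versions. RMA subtracts background, makes the distributions of the arrays equal and combines the probes of a set, so that a change common to most genes is removed. The log base was inferred from the values. The 4 arrays (1 per group, each a pool of 3 mice) were grouped by title, and their number limits the precision.

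Probe sets with exactly 1 symbol and no controls (64 left out) gave 18193 genes, each read from its probe set of highest mean. Differences of log2 values were described at 2-fold and, for some, at 1.5-fold, with no p-value, using Python 3.11.15, pandas 2.3.3 and numpy 2.4.6. The members and gene lists were chosen with earlier results of these data known. All 10 members were named, and of the other claudins and the junction lists up to 3 genes with the largest difference at any time. The adherens junction list is given by its range, and Cdh1 and Grhl2 were added as textbook partners after their values were seen. Cdx1 was likewise added, beside Cdx2, because of the CDX motif. The member with the highest mean and the one with the largest difference were set beside the 3 genes nearest in course. Of 170 listed genes 156 were measured and 14 are not analysed here. Alternatives covered the probe set, scaling, filter, threshold and a pseudocount of 32 on the linear scale.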

Additional observations from a re-analysis of the deposited data

Results flagged for a closer look

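Cldn2 lay on opposite sides of vehicle on different tamoxifen arrays, with a difference of -0.94 at 12 hours and of 1.39 and 2.08 at 2.5 and 4.5 days. The difference between these times was not tested, since each time is 1 array and all 3 share the vehicle array. Its dimmer probe set gave 0.00, 0.32 and 1.10, so the lower value at 12 hours rests on 1 probe set.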

How the results depend on the processing

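Under 9 alternatives and 1 more added after these values were seen (the probe set chosen without the 12-hour array), no difference past 2-fold changed sign. Among smaller differences, the sign did not hold for Cldn1 and Cldn12 at 12 hours or for Cldn10 at 2.5 days. Cldn2 at 12 hours ranged from -0.99 to 0.00. Of 78 recomputed counts and medians 69 stayed close. With a filter at the 75th percentile, 0 claudins were at least 2-fold lower at each of the 3 times, because Cldn8 left the filter, and 2 were higher at 4.5 days, because Cldn4 left it. At 1.5-fold, 2 were higher and 2 lower at 12 hours. With the mean over all probe sets, or the probe set of median absolute difference, 0 were higher at 2.5 days, since Cldn2 was then at 0.85 or 0.32, and the latter put the median there at 0.080. Scaling to the hybridisation controls put the median at 4.5 days at 0.44. The pseudocount of 32 lowered Cldn4 at 12 hours to 1.36 and at 4.5 days to 0.71, the latter under 2-fold. It put Cldn8 at -1.28, -1.46 and -1.79. Single-member values moved by over 0.15 in 39 of 180 cases. No paired analysis was possible because each group is 1 array with no replicate number. Signal close to background limits Cldn1, Cldn8 and Cldn10, and also Cldn4, whose vehicle level of 5.67 was near the array median of 5.31.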

Other observations

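Neighbours of the claudins in the genome gave further values. Outside the claudin family, only Morc4, Slc2a4 and Cdc45 of those measured passed 2-fold at any time, and they are named for that. The other measured neighbours stayed under 2-fold. Cdc45, next to Cldn5 and below the array median in vehicle, was at 0.36, 1.19 and 1.19 from vehicle. Morc4, next to Cldn2 on the X chromosome, was 0.43, 1.19 and 1.22 from vehicle on the 12-hour, 2.5-day and 4.5-day arrays of tamoxifen, above vehicle with Cldn2 at the later times and opposite to it at 12 hours. Slc2a4, the insulin-responsive glucose transporter gene next to Cldn7, was at -1.25, -1.23 and -1.34, while Cldn7 was above vehicle. These neighbours are the adjacent protein-coding genes of the RefSeq annotation (GRCm38.p6), looked up after the claudin values were seen.

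The search for genes of similar course was repeated after the values were seen for the other members past 2-fold. Nearest to Cldn2 were Dio2, the mitotic kinase gene Bub1 and the chloride channel gene Cftr, at distances of 0.32, 0.36 and 0.43. Cftr differed from vehicle by -1.14, 1.15 and 2.38. Nearest to Cldn4 were the chitinase-like gene Chil4, the glutathione synthesis gene Gclc and the phosphatase gene Dusp4, at 0.45, 0.47 and 0.49, and Gclc was at 1.70, 0.74 and 0.88. Nearest to Cldn7 were Phlda2, Epop and the adhesion molecule gene Ceacam1, at 0.20, 0.21 and 0.21, and Ceacam1 was at 0.13, 0.51 and 1.11.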
